A study of Rattus norvegicus with 2 samples.

Results

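The genes described here build cilia, move cargo along microtubules or encode tubulin. They were chosen by name alone: a gene was taken if its symbol in GEO's platform annotation began with Dnah, Dnai, Dnal, Dync, Dynl, Tekt, Rsph, Spag, Ift with a digit, Bbs, Cfap, Tuba, Tubb or Tubg, or was one of a few further ciliary genes such as Tppp3, Hydin, Spef2, Lrrc23 and Ccdc39. The rule found 134 probes for 87 genes, out of 20417 named probes for 15610 genes. Sntn, Pifo, Spef1, Ccdc40 and Ccdc113, which the rule also names, matched no annotated symbol. Of these 87 genes, 33 belong to motile cilia, 31 to transport along microtubules and 18 to tubulin and its ring complex, and the other 5 are sperm-associated antigens named for their discovery in testis.

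Expression was measured on 2 two-colour Agilent oligonucleotide arrays. Each array carried total RNA of rat lung cells that had been neither cultured nor treated, labelled with Cy3, beside total RNA of mix1, labelled with Cy5. Mix1 pooled 2 kinds of cultured rat cells, from bone marrow and from ear fibroblasts in primary culture, whose media held 10% fetal bovine serum. The same mix1 RNA served as the control on both arrays. The labels give no strain, age or sex, and the dyes were swapped on neither array, so an effect of the dyes and a difference between the RNAs cannot be told apart.

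Motile cilia are the beating organelles of ciliated cells in the airway epithelium. Their core, the axoneme, is a ring of doublet microtubules around a central pair. Outer and inner dynein arms drive sliding between the doublets, while radial spokes and the central apparatus coordinate it. Most other cells carry a single primary cilium, which has no dynein arms but shares intraflagellar transport, the traffic of tubulin and cargo in and out of the organelle, with motile cilia. Cytoplasmic dynein carries cargo toward the minus ends of microtubules in nearly every cell, and alpha and beta tubulin are the subunits of all microtubules.

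Each value is a deposited log2 ratio, averaged over the probes of a gene, given for lung replicate 1 and lung replicate 2 and then as the mean ± SD (n = 2). A value of 1 stands for a 2-fold higher signal in lung. The direction, lung over mix1, is likely but not stated outright: it was read from the wording of the series and from 6 lung genes (Sftpc, Sftpa1, Sftpb, Sftpd, Scgb1a1 and Ager), whose means ran from 3.94 to 7.02. With the sign turned, every direction below would be the opposite. Genes were called by limma's moderated test of the ratio against 0 at a Benjamini-Hochberg adjusted p under 0.05. Whether the replicates were separate animals is not labelled, so the p-values rest on a spread that may be technical, and the spread of mix1 was left out. Over the 87 genes the median SD was 0.051 and Pearson's r between the arrays was 0.994, across genes that are not independent replicates. The number of arrays limited the precision. The test called 82.7% of all named genes, 32.9% as higher in lung and 49.7% as lower, so counts at 2-fold or more in both arrays are given beside those of the test.

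Motile cilium genes were mostly higher in lung, tubulin genes mostly lower, and transport genes lay on both sides of 0. Of the 33 motile cilium genes, 28 were higher, 3 lower and 2 not called, and 25 were at least 2-fold higher in both arrays, a share of 75.8% beside 16.5% of all named genes. None of the 33 was at least 2-fold lower in both arrays, beside 15.8% of all named genes. At 4-fold in both arrays, 19 of the 33 were higher, beside 8.46% of all genes, and 0 were lower, beside 5.12%. The median log2 ratio of these 33 genes was 2.33 and that of all named genes was -0.22. In these bulk samples, fewer cells of a type and less RNA per cell cannot be told apart, here as in every comparison.

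Among the 31 transport genes, 14 were higher (45.2%, beside 32.9% of all named genes), 10 lower (32.3%, beside 49.7%) and 7 not called, with a median of 0.10. Only Dynlrb2 and Bbs2 were at least 2-fold higher in both arrays (6.5%, beside 16.5% of all named genes). At least 2-fold lower were 4 genes (12.9%, beside 15.8%), so neither 2-fold share exceeded that of all named genes. Among the 18 tubulin genes, 1 was higher (5.6%, beside 32.9% of all named genes), 11 lower (61.1%, beside 49.7%) and 6 not called, with a median of -0.80. At 2-fold in both arrays, 8 of the 18 were lower (44.4%, beside 15.8% of all named genes).

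**Figure D1:**
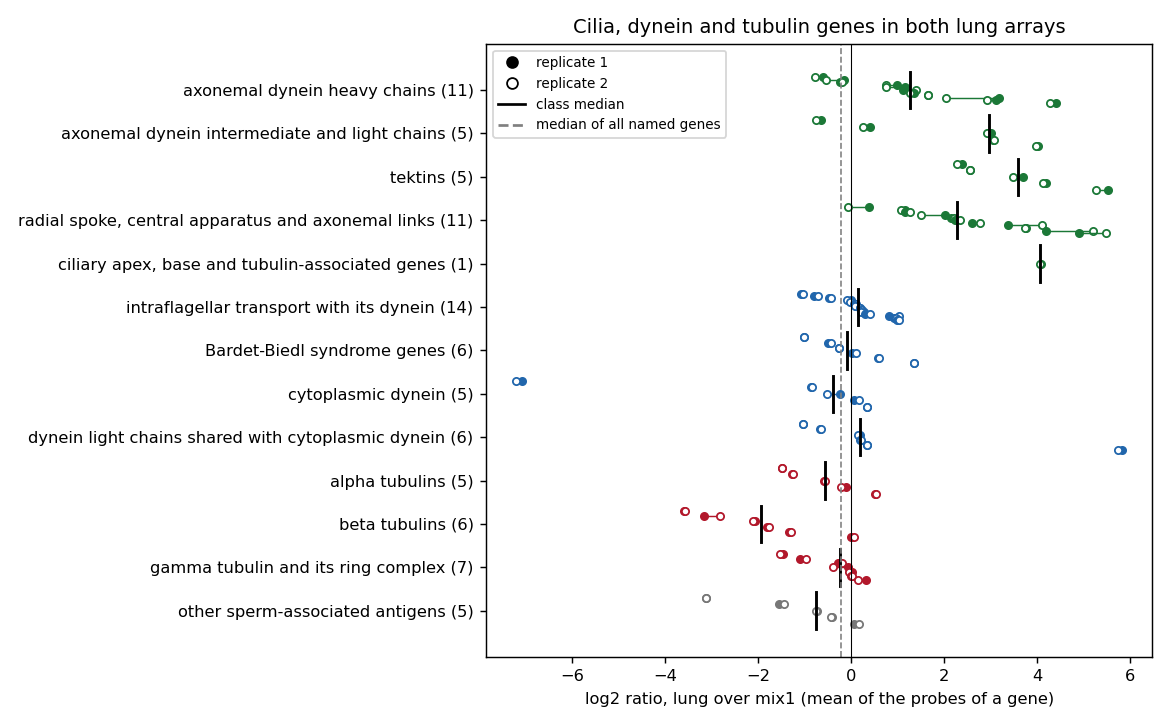
Log2 ratio of lung over mix1 for each of the 87 genes (horizontal axis) by class (vertical axis, number of genes in parentheses). Filled and open points are lung replicates 1 and 2, the short black line is the median of the class, and the dashed line is the median of all named genes at -0.22. Motile cilium classes (green) have medians from 1.26 to 4.07, transport classes (blue) from -0.38 to 0.19 and tubulin classes (red) from -1.94 to -0.23.

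The promoters of these genes were read to show which letters they share beyond their names. Of the 87 genes, 73 had an entry in a RefSeq table of promoters on the rat assembly GRCr8, which gives 250 bases before and 50 bases after each annotated start. GTTGCCA, searched on both strands, is a conserved stretch of the X-box, the site of the RFX transcription factors that act on cilium genes. It stood in 6 of 27 motile cilium promoters (22.2%) and in 6 of 24 transport promoters (25%), beside 4.56% of all 33469 promoters and 4.10% of the 12890 promoters of named array genes. It was found in 0 of the 18 tubulin promoters. Its place was also shared: within 50 bases on either side of the start it stood in 6 of 27 motile cilium promoters and 5 of 24 transport promoters, beside 1.32% of named array genes. A match describes letters only and no binding was measured.

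The first 5 sequences carry these letters and belong to genes that were higher in lung: Spag8 and Tekt1, proteins of the inner wall of the doublet microtubule, Lrrc23 of the radial spoke, Ift88 of intraflagellar transport and Dync2li1, a chain of the ciliary transport dynein. Capitals mark GTTGCCA or, where the match lies on the other strand, its reverse complement. Spag8 is at chr5:62699615-62699914 (minus strand), Tekt1 at chr10:57479072-57479371 (minus strand) and Lrrc23 at chr4:159277715-159278014 (minus strand). Ift88 is at chr15:35688737-35689036 (plus strand) and Dync2li1 at chr6:15778117-15778416 (minus strand), all on GRCr8 and written 5′ to 3′ along the gene.
Spag8: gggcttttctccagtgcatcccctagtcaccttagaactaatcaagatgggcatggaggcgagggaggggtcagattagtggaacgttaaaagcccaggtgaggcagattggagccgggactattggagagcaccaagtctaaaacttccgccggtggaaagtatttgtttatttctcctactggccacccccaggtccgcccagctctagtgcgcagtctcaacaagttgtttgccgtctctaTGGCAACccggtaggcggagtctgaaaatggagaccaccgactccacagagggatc
Tekt1: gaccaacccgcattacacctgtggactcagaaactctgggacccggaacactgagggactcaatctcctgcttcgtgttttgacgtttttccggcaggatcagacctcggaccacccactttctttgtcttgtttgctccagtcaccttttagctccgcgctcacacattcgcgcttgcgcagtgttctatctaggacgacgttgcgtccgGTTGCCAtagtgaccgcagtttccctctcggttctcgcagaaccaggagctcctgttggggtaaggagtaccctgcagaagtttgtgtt
Lrrc23: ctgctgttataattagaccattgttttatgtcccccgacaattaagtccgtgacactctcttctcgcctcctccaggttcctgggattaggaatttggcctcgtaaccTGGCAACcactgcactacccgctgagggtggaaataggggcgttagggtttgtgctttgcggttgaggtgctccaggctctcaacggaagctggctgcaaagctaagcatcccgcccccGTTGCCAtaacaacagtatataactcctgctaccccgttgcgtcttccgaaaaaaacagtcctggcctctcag
Ift88: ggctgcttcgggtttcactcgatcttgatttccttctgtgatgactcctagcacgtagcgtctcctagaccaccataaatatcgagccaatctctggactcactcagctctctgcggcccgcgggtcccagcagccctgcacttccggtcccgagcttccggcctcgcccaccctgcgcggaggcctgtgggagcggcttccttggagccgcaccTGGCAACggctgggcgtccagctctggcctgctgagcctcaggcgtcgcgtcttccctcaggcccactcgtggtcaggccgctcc
Dync2li1: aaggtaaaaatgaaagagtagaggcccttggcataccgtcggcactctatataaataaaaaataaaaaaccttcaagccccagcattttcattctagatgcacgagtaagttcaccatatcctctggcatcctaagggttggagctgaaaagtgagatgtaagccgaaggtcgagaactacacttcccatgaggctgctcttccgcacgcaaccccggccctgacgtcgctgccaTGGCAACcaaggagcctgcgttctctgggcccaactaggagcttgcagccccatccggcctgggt

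The X-box stretch lies 6 bases before the start in Spag8, 39 in Tekt1, 35 in Ift88 and 15 in Dync2li1, and Lrrc23 holds it both 23 and 142 bases before its start. The other motile cilium and transport genes with these letters were Dnah2, Dnah10, Hydin, Bbs1, Dync1i2, Ift27 and Ift81, whose log2 ratios ran from -0.25 to 1.22. Tekt3 and Spef2, with the highest ratios of the motile cilium genes, do not hold these letters in this window.

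TGTTTAC, a forkhead motif searched on both strands, stood in 3 of 27 motile cilium promoters (Tekt3, Spef2 and Dnali1) and in 0 of 24 transport and 0 of 18 tubulin promoters, beside 3.78% of all promoters. The Tekt3 promoter is shown because Tekt3 had the highest ratio of the motile cilium genes. It is at chr10:48228609-48228908 (plus strand, GRCr8), with TGTTTAC in capitals 184 bases before the start. CCAAT, a common promoter element bound by NF-Y, was searched on both strands as well and stood in 10 of 18 tubulin promoters (5 of the 6 beta tubulins), 11 of 24 transport promoters (45.8%) and 7 of 27 motile cilium promoters (25.9%), beside 37.5% of all promoters. The Tubb5 promoter, at chr20:2917327-2917626 (plus strand, GRCr8), is shown as an example with CCAAT in capitals. TTTGAA, the core of the cell cycle homology region, stood in 4 of 27 motile cilium (14.8%), 0 of 24 transport and 2 of 18 tubulin promoters (11.1%). It stood in 18.3% of all promoters and in 15.4% of those of named array genes. The motile cilium share lay near the latter, and all of these counts are small.
Tekt3: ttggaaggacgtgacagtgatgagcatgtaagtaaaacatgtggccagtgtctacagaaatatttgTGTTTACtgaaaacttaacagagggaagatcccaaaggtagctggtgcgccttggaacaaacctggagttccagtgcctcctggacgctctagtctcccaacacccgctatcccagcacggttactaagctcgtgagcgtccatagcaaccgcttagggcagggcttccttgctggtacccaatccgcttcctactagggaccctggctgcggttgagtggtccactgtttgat
Tubb5: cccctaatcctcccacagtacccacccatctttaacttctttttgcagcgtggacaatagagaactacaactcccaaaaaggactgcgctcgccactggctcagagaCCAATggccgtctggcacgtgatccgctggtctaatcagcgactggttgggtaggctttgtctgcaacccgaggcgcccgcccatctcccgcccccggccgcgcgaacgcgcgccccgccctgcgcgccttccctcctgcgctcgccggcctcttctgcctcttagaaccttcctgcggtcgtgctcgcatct

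Axonemal dynein heavy chains are the motor subunits of the arms. Of 11 heavy chain genes, 8 were higher in lung (72.7%, beside 32.9% of all named genes), 2 lower and 1 not called. Their median was 1.26, and 6 were at least 2-fold higher in both arrays (54.5%, beside 16.5%). The outer arm motor Dnah9, with 1 probe, had log2 ratios of 4.40 and 4.28, a mean of 4.34 ± 0.08 or 20.3-fold (adjusted p = 0.00117). Dnah12, an inner arm chain, had 3.12 and 2.92 (3.02 ± 0.14), and Dnah6, of the inner arms too, 3.17 and 2.03 (2.60 ± 0.80, adjusted p = 0.0204). Both Dnah6 values lay above those of every lower-ranked heavy chain, although the arrays differed by more than 2-fold.

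The other inner arm chains followed with means of 1.66 ± 0.01 for Dnah1, 1.32 ± 0.07 for Dnah7, 1.26 ± 0.20 for Dnah3, 0.96 ± 0.29 for Dnah2 and 0.87 ± 0.18 for Dnah10. Neighbours in this order from Dnah7 to Dnah10 did not differ beyond their spread. Dnah5, the second outer arm motor of airway cilia, was not called, with -0.16 and -0.54 (-0.35 ± 0.27, adjusted p = 0.113). Dnah8 and Dnah17, outer arm chains known from the sperm tail, were lower, at -0.68 ± 0.12 (adjusted p = 0.0086) and -0.21 ± 0.04 (adjusted p = 0.024). The call of Dnah17 was lost with array medians subtracted, where it lay at -0.02 (adjusted p = 0.729).

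Probes of the same heavy chain disagreed. Of 35 heavy chain probes, 15 were at least 2-fold higher in both arrays, 1 was at least 2-fold lower and 19 lay between, with a median of 0.39, and 17.3% of all named probes were at least 2-fold higher. The 5 Dnah12 probes ran from -0.21 to 7.11, the 7 Dnah2 probes from -0.76 to 4.89 and the 5 Dnah7 probes from -0.37 to 3.17. Dnah1 and Dnah3 each had 1 probe well above 0, at 3.73 and 2.89, and 1 below it, at -0.42 and -0.36. In all, 8 of the 11 heavy chains had at least 1 probe that was 2-fold higher in both arrays, and Dnah5, Dnah8 and Dnah17 had none. Such a count rises with the number of probes by construction. By gene mean, 6 of the 11 were at least 2-fold higher in both arrays (54.5%, beside 16.5% of all named genes).

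The gene means above therefore join probes of different behaviour. The lower middle probe in place of the mean turned the sign of Dnah1 (-0.42), Dnah2 (-0.35) and Dnah3 (-0.36) and of the class median (-0.21). For Dnah1 and Dnah3, with 2 probes each, this is the lower probe, so their turn follows by construction. The class median rests on the same choice. The ordinary median of the probes was 1.66 for Dnah1, 1.26 for Dnah3 and -0.35 for Dnah2. One Dnah6 probe read 5.92 and 3.16 in the 2 arrays and another 2.23 and -0.56, which is where the spread of that gene lies. Scanner intensities and probe positions were not used here, so which of these probes lay above background, and which part of each transcript they read, was not tested. Over all classes, 18 of the 32 chosen genes with several probes had probes at least 2-fold apart (56.2%), beside 36.9% of the 3768 such genes on the array.

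**Figure D2:**
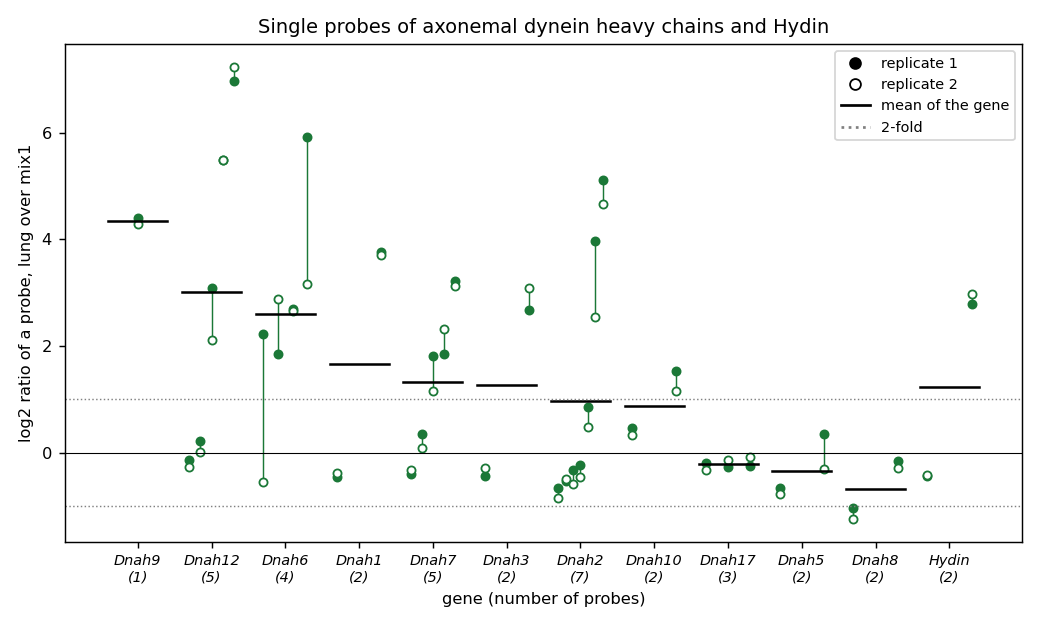
Log2 ratio of lung over mix1 (vertical axis) for each probe of the 11 heavy chain genes and Hydin (horizontal axis, number of probes in parentheses). Filled and open points are lung replicates 1 and 2, joined for each probe, short black lines are gene means and dotted lines mark 2-fold. Probes of Dnah12 spread from -0.21 to 7.11, and those of Dnah17 all lie between -0.26 and -0.17 in the mean.

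Of 5 intermediate and light chain genes of the arms, 4 were higher and 1 was lower (median 2.97). Dnai1, an outer arm intermediate chain, had log2 ratios of 4.03 and 3.97 (SD 0.04, adjusted p = 0.00117), and its partner Dnai2 had 3.06 and 3.08 (3.07 ± 0.02). Dnali1, a light intermediate chain of the inner arms, had 3.01 and 2.92 (2.97 ± 0.07), with its 2 probes at 3.23 and 2.71. These 3 genes lay at least 7.82-fold higher in the mean. By contrast the outer arm light chain Dnal1 was higher by little, at 0.33 ± 0.10 (adjusted p = 0.0282), and Dnal4 was lower, at -0.70 ± 0.08 (adjusted p = 0.00532).

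All 5 tektins, filament proteins inside the doublet microtubules, were higher and at least 4-fold so in both arrays, with a median of 3.59. Tekt3 had log2 ratios of 5.54 and 5.27 (5.40 ± 0.19), a 42.3-fold difference that ranked 102nd from the highest of 15610 genes. Tekt2 followed at 4.20 and 4.12 (4.16 ± 0.06) and Tekt5, known mainly from sperm, at 3.71 and 3.48 (3.59 ± 0.16). Tekt1 had 2.56 in both arrays and Tekt4 had 2.39 and 2.27 (2.33 ± 0.08). The values of no 2 tektins overlapped between the arrays. Each tektin was read by 1 probe, so agreement between probes could not be looked at here.

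Of 11 genes for radial spokes, the central apparatus and axonemal links, 10 were higher, 0 lower and 1 not called by limma, with a median of 2.28, and 0 were lower at an unadjusted p under 0.05. Spef2, a central apparatus protein, had 4.90 and 5.47 (5.18 ± 0.41), and Rsph10b, a radial spoke protein, had 4.20 and 5.21 (4.70 ± 0.71, adjusted p = 0.00565). The spoke head protein Rsph1 had 3.76 and 3.74 (3.75 ± 0.01). Spag8 lay at 2.68 ± 0.11 and Lrrc23 at 2.28 ± 0.08. Ccdc39, which sets the repeat length of the axoneme with a partner, lay at 2.18 ± 0.04.

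The ratios of the remaining genes of this class ran from 0.16 to 3.74. Spag16, of the central apparatus, had 2.03 and 1.51 (1.77 ± 0.37), and Spag1, a factor for the assembly of dynein arms, lay at 1.11 ± 0.06. Hydin, of the central apparatus, lay at 1.22 ± 0.07, but its probes stood at 2.88 and -0.43, as in several heavy chains. The gene annotated Spag6, now Spag6l, had 3.38 and 4.11 (3.74 ± 0.52), whereas the gene annotated Spag6l, now Spag6, had 0.38 and -0.07 (0.16 ± 0.32, adjusted p = 0.42). These 2 genes are close copies, and whether their probes read 1 copy or both was not tested. Tppp3, a protein that promotes tubulin polymerisation and is abundant in ciliated cells, had 4.08 and 4.06 (4.07 ± 0.01), or 16.8-fold.

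Among the motile cilium genes, probe number moved with the size of the ratio, but also with class. The 17 motile cilium genes with 1 probe had a median of 3.74, with 15 at least 2-fold higher in both arrays, and the 16 with several probes had a median of 1.29, with 10 at least 2-fold higher. All 3 motile cilium genes called lower had several probes. Several probes were found for 10 of the 11 heavy chains (median 1.26) but 0 of the 5 tektins (median 3.59). In the class of radial spokes, central apparatus and links it was 4 of 11 (median 2.28). Probe number and class were not separated, and the part of probe number in these ratios was not tested.

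The annotation predates the current Cfap names, so the rule caught no Cfap gene. After symbols were updated through RefSeq, 30 further genes with 39 probes carried names of the rule, and 22 of them belong to motile cilia. Of those 22, 19 were higher (86.4%, beside 32.9% of all named genes), 3 lower and 0 not called, with a median of 1.50. At 2-fold in both arrays, 13 were higher (59.1%, beside 16.5%), against 25 of 33 under the annotated names. Cfap144, annotated Fam183b, had 5.41 and 5.31 (5.36 ± 0.07), Cfap90 had 5.20 and 5.06 (5.13 ± 0.10) and Cfap206 had 5.34 and 4.66 (SD 0.48). All are cilia- and flagella-associated proteins. Dnai3, annotated Wdr63, is an inner arm intermediate chain and had 5.06 and 3.78 (4.42 ± 0.91, adjusted p = 0.00954). The 3 called lower were Cfap410 (-0.77 ± 0.02), Tektl1 (-0.25 ± 0.09) and Cfap97d1 (-0.22 ± 0.09).

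Other motile cilium genes, listed for their function and not their name, were mostly higher too. Of 20 such genes outside the rule, 17 were higher and at least 2-fold so, 0 were lower and 3 were not called by limma (0 lower at an unadjusted p under 0.05), with a median of 2.97. Among them Capsl lay at 6.74 ± 0.38, Iqcg, of the nexin-dynein link, at 4.55 ± 0.22, and Efhc2, of the doublet wall, at 4.15 ± 0.09. Of 20 genes listed for dynein arm assembly or docking, 14 were higher, 3 lower and 3 not called, with a median of 1.32. The share called higher was 70%, beside 32.9% of all named genes. This list also holds the nexin-dynein proteins Drc1 and Drc7, which neither assemble nor dock the arms. The outer arm docking protein Odad2, 1 of 2 genes on both lists, was highest at 5.44 ± 0.63. Drc1 at 2.93 ± 0.24 and Drc7 at 2.83 ± 0.07 followed, then Zmynd10, an assembly factor in the cytoplasm, at 2.63 ± 0.07. Against them, Pih1d1 and Ruvbl1, chaperone components that every cell uses, were lower at -1.40 ± 0.06 and -0.45 ± 0.01.

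Of 18 regulators of ciliogenesis, 3 were higher, 10 lower and 5 not called, with a median of -0.30. These values lay near those of all named genes (55.6% lower beside 49.7%, median -0.22), and at 2-fold in both arrays 2 were higher and 1 lower. Foxj1, the transcription factor of the motile cilium programme, was highest with 4.83 and 4.63 (4.73 ± 0.14), and the centrosomal Cep63 lay at 1.42 ± 0.01. On the other side stood Stil, a factor of centriole duplication, at -2.19 ± 0.39, E2f4 at -0.93 ± 0.12, Trrap at -0.82 ± 0.01 and Gmnn, which encodes geminin, at -0.72 ± 0.01. Several of these also act in the cell cycle.

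**Figure D3:**
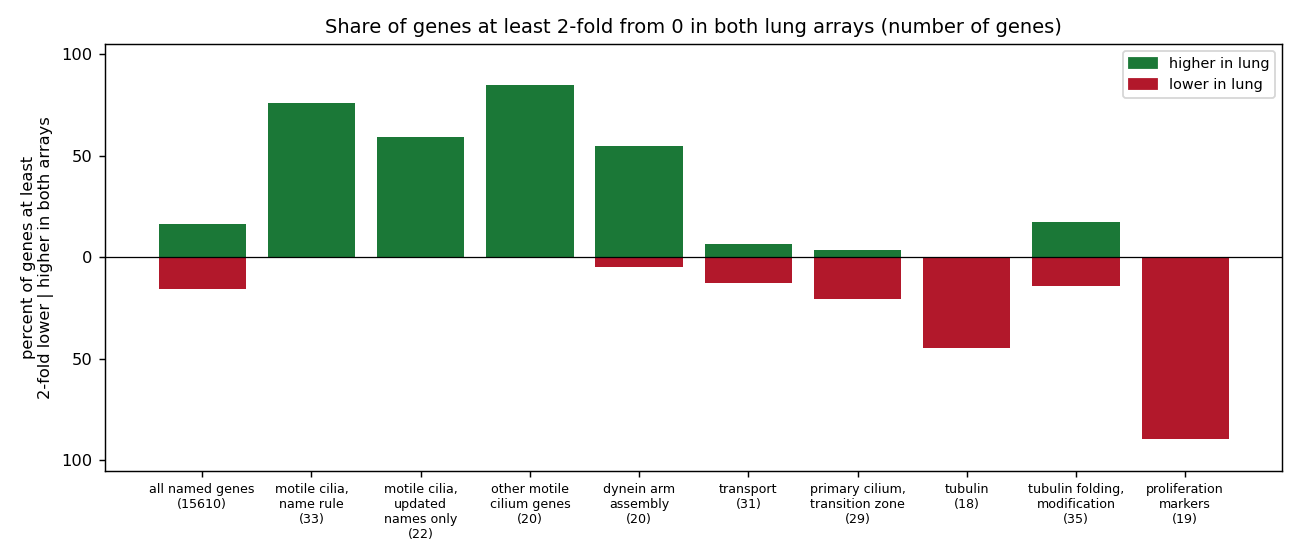
Percent of genes at least 2-fold higher (green, upward) or lower (red, downward) in lung in both arrays (vertical axis), for all named genes and for groups of genes (horizontal axis, number of genes in parentheses). The motile cilium groups have green bars from 55.0% to 85.0%, beside 16.5% of all named genes, and tubulin and proliferation genes have red bars alone.

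Intraflagellar transport genes lay near 0. Of 14 genes with the transport dynein, 7 were higher (50%, beside 32.9% of all genes), 3 lower (21.4%, beside 49.7%) and 4 not called. Their median was 0.14, and none reached 2-fold higher in both arrays, beside 16.5% of all named genes. Dync2li1, the light intermediate chain of the ciliary dynein, had 0.98 and 1.04 (1.01 ± 0.04). Ift172 and Ift88, of the anterograde IFT-B complex, lay at 0.94 ± 0.03 and 0.93 ± 0.15. These 3 were the highest, and the range of Ift88, from 0.82 to 1.04, covered the values of both others. The heavy chain of the same dynein, Dync2h1, lay at only 0.19 ± 0.01 (adjusted p = 0.0217).

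Ift46 (0.36 ± 0.07), Ift81 (0.25 ± 0.04) and Ift27 (0.23 ± 0.01) were higher by little. Ift80, also of IFT-B, had -1.08 and -1.04 (-1.06 ± 0.03) and was the only gene of the class at least 2-fold lower in both arrays. Ift43, of the retrograde IFT-A complex, and Ift20 were lower as well, at -0.75 ± 0.07 and -0.45 ± 0.03. Members of a single complex thus lay on both sides of 0. Ift74, Ift122, Ift52 and Ift57, with means from -0.04 to 0.10, were not called, and of these Ift74, Ift122 and Ift52 passed as higher with array medians subtracted.

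Bardet-Biedl syndrome genes encode the BBSome, a coat that moves membrane proteins in and out of cilia, and its assembly factors. Of 6 genes, 2 were higher, 3 lower and 1 not called, with a median of -0.09 that turned to 0.10 with array medians subtracted. The shares of 33.3% higher and 50% lower lay near the 32.9% and 49.7% of all named genes. Bbs2 had 1.36 and 1.35 (1.35 ± 0.00) and Bbs4 lay at 0.59 ± 0.01. Bbs12, a chaperonin-like assembly factor, lay at -1.01 ± 0.01, and Bbs9 lay at -0.46 ± 0.05. Bbs1 was called lower at -0.25, but its probes stood at 0.81 and -1.31 and the call was lost with array medians subtracted (-0.06, adjusted p = 0.388).

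Genes of the primary cilium and transition zone, the gate at the base of every cilium, were more often lower than higher, as all named genes were. Of 29, 6 were higher, 16 lower and 7 not called, with a median of -0.37, and 6 were at least 2-fold lower in both arrays (20.7%, beside 15.8% of all genes). Ttc8, a BBSome subunit, and Tmem237 both lay at -1.41 ± 0.04, Tmem231 at -1.36 ± 0.01 and the Hedgehog signal transducer Smo at -1.35 ± 0.18. Cep290 (1.80 ± 0.02) and Nphp4 (1.04 ± 0.08) were higher. Of 13 ciliary kinesins and transport genes outside the rule, 5 were higher, 5 lower and 3 not called, with a median of -0.04. Each of the called shares was 38.5%, beside 32.9% of all named genes higher and 49.7% lower. Kif27 lay at 1.21 ± 0.04 and Traf3ip1 at 0.61 ± 0.04. Kif3c was lower at -1.01 ± 0.02, Tctn2 at -0.88 ± 0.09, Kif7 at -0.51 ± 0.01 and Tctn3 at -0.50 ± 0.06.

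Of the 8 transport genes found by updated names, 4 were higher, 2 lower and 2 not called. At 2-fold in both arrays, 2 were higher (25%, beside 16.5% of all named genes) and 2 lower (25%, beside 15.8%). Unlike in the 31 genes of the rule, both 2-fold shares exceeded those of all named genes, over only 8 genes. Dynlt4, annotated Tctex1d4, had 3.36 and 2.95 (3.15 ± 0.29), and Dync2i1, annotated Wdr60 and an intermediate chain of the ciliary dynein, had 1.26 and 1.34 (1.30 ± 0.05). Ift56, annotated Ttc26, and Ift22 were at least 2-fold lower in both arrays, at -1.64 ± 0.13 and -1.34 ± 0.06.

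Within cytoplasmic dynein the extremes of all 87 genes stood side by side. The intermediate chain Dync1i1, known as the form enriched in neurons, had -7.08 and -7.19 (-7.14 ± 0.08, adjusted p = 0.00117), a 141-fold lower signal in lung and the 21st lowest of 15610 genes. The broadly expressed intermediate chain Dync1i2 had 0.35 and 0.33 (0.34 ± 0.01). The log2 ratios of the 2 chains differed by 7.43 in replicate 1 and 7.53 in replicate 2. Dync1i1 was read by 1 probe. The 2 probes of Dync1i2 stood at 0.97 and -0.28.

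The light chain Dynlrb2, a roadblock-type chain known from ciliated tissues, had 5.83 and 5.75 (5.79 ± 0.06), or 55.3-fold, and ranked 64th from the highest of all genes. Its close relative Dynlrb1, the general form, had 0.20 and 0.22 (0.21 ± 0.02, adjusted p = 0.0194). The ratios of the 2 relatives differed by 5.63 and 5.53. These pairs were set side by side after their values were known and carry no test.

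The remaining dynein subunits lay within about 2-fold of mix1. Dync1li2, a light intermediate chain, was lower at -0.85 ± 0.03, with probes at 0.16 and -1.86. The motor subunit Dync1h1 (-0.38 ± 0.20, adjusted p = 0.0551) and Dync1li1 (0.11 ± 0.08, adjusted p = 0.137) were not called. Dynll2 had -1.02 and -1.03 (-1.03 ± 0.01) and Dynlt1 lay at -0.65 ± 0.01, whereas Dynll1 lay at 0.18 ± 0.03 (adjusted p = 0.0306). Dynlt3 lay at 0.34 ± 0.01, with its probes at 1.38 and -0.70.

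Of 19 genes for dynactin and the adaptors that join dynein to cargo, 5 were higher, 13 lower (68.4%, beside 49.7% of all named genes) and 1 not called, with a median of -0.57. At 2-fold in both arrays, 2 were higher and 2 lower (10.5%, below the 15.8% of all named genes). The latter were Nde1, a regulator of dynein in dividing cells, at -2.11 ± 0.01, and the adaptor Bicd1 at -1.94 ± 0.06. Hook2 lay at -0.88 ± 0.02 and Ndel1 at -0.85 ± 0.00. In the other direction the adaptor Bicdl1 had 4.23 and 4.01 (4.12 ± 0.16) and Hook1 had 2.41 and 1.38 (1.89 ± 0.73, adjusted p = 0.0307).

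**Figure D4:**
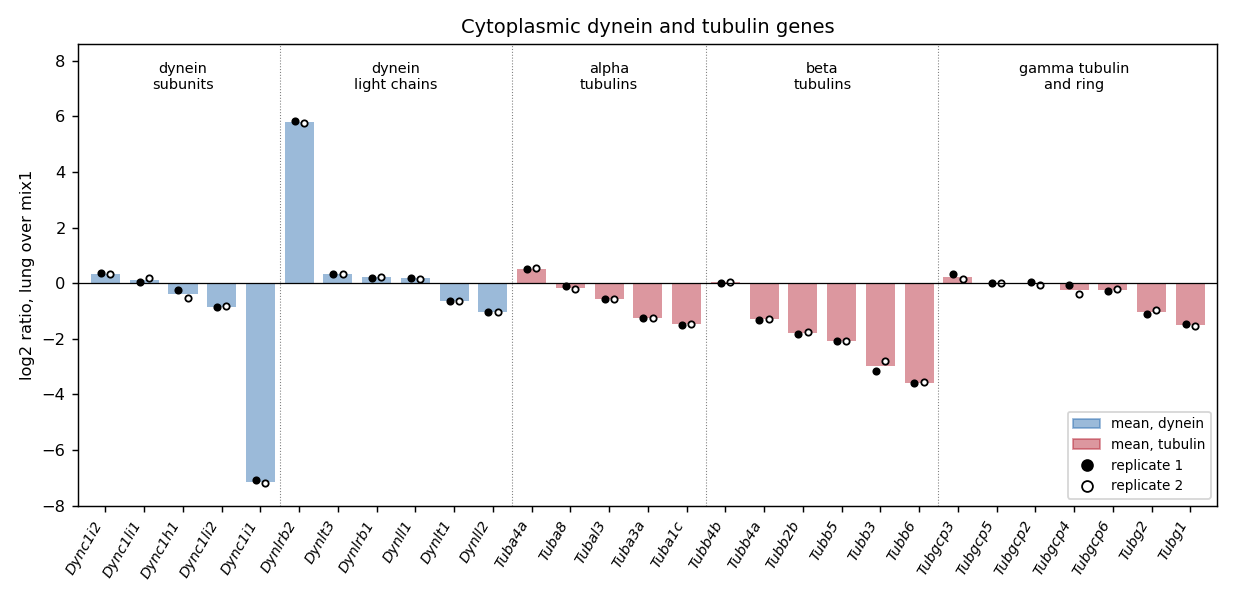
Log2 ratio of lung over mix1 (vertical axis) for the cytoplasmic dynein, light chain and tubulin genes (horizontal axis). Bars are means of the 2 lung arrays, blue for dynein and red for tubulin, and filled and open points are replicates 1 and 2. Dynlrb2 at 5.79 and Dync1i1 at -7.14 stand apart from their relatives, and 5 of the 6 beta tubulins lie below -1.

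Of 6 beta tubulin genes, 5 were lower and at least 2-fold so in both arrays. That share of 83.3% stood beside 49.7% of all named genes lower by limma and 15.8% at 2-fold. By limma 1 was not called and 0 were higher (0 also at an unadjusted p under 0.05), with a median of -1.94. Tubb6 had -3.59 and -3.56 (-3.58 ± 0.02), 11.9-fold lower, with its 2 probes at -2.82 and -4.34. Tubb3, known as the neuronal form, had -3.16 and -2.81 (-2.98 ± 0.25). Tubb5, the general form of dividing cells, had -2.07 and -2.10 (-2.08 ± 0.02). Tubb2b had -1.81 and -1.77 (-1.79 ± 0.03) with 3 probes that all lay below 0, and Tubb4a had -1.32 and -1.29 (-1.31 ± 0.02).

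Tubb4b, the beta tubulin abundant in cilia, stood apart from the other beta tubulins. Its ratios were -0.00 and 0.06 (0.03 ± 0.04, adjusted p = 0.503), and with array medians subtracted it passed as higher at 0.22 (adjusted p = 0.0424). The ratio of Tubb4b exceeded that of Tubb6 by 3.59 in replicate 1 and 3.62 in replicate 2. Beta tubulins are similar in sequence, and whether their probes also read relatives was not tested, because probe sequences were not used here.

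Alpha tubulins showed smaller ratios. Of 5 genes, 1 was higher (20%, beside 32.9% of all named genes), 3 lower (60%, beside 49.7%) and 1 not called. Their median was -0.57. Tuba1c had -1.49 and -1.47 (-1.48 ± 0.01) with both probes alike, Tuba3a, a testis form, had -1.26 and -1.25 (-1.26 ± 0.01), and Tubal3 lay at -0.57 ± 0.02. Tuba4a had 0.52 and 0.53 (0.52 ± 0.01) and was the only tubulin gene called higher. Tuba8 was not called (-0.16 ± 0.08, adjusted p = 0.0736), with its probes at 0.47 and -0.79.

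Gamma tubulin nucleates microtubules within a ring complex. Both of its genes were lower, Tubg1 with -1.46 and -1.53 (-1.49 ± 0.05) and Tubg2 with -1.10 and -0.97 (-1.04 ± 0.09). The ring proteins lay near 0: Tubgcp2, Tubgcp3, Tubgcp4 and Tubgcp5, with means from -0.23 to 0.24, were not called, and Tubgcp6 was called at -0.23 ± 0.05 (adjusted p = 0.0254), a call lost with array medians subtracted. Tubgcp3 and Tubgcp5 passed as higher under that setting. Of 12 partners of the ring and centrosome proteins, 4 were higher, 6 lower and 2 not called, with a median of -0.15. The shares of 33.3% higher and 50% lower lay near the 32.9% and 49.7% of all named genes. Haus4, of the augmin complex that branches microtubules in the spindle, was lowest at -1.90 ± 0.05, with Haus2 at -1.09 ± 0.13, Haus3 at -0.85 ± 0.00 and the ring protein Mzt2b at -0.68 ± 0.03. Pcm1, of the satellites around centrosomes, lay at 1.44 ± 0.02 and Haus6 at 1.12 ± 0.16.

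Enzymes and chaperones that fold or modify tubulin split much as all named genes did. Of 35 genes, 10 were higher (28.6%, beside 32.9% of all named genes), 18 lower (51.4%, beside 49.7%) and 7 not called. Their median of -0.25 lay near that of all genes. Agbl2, a carboxypeptidase that trims tubulin tails, had 4.82 and 5.32 (5.07 ± 0.35), and Ttll2, of the tubulin ligase family, had 3.37 and 3.79 (3.58 ± 0.30). Lower were Vash2, which removes tubulin's terminal tyrosine, at -2.37 ± 0.58, the glycylase Ttll3 at -1.84 ± 0.23, the deacetylase Hdac6 at -1.73 ± 0.02 and the prefoldin subunit Pfdn1 at -1.49 ± 0.03.

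The sperm-associated antigens outside the axoneme were lower or not called. Spag5, a spindle protein also called astrin, had -3.12 and -3.11 (-3.12 ± 0.00), Spag4, a nuclear envelope protein of the SUN family, had -1.56 and -1.45 (-1.50 ± 0.08), the scaffold Spag9 lay at -0.75 ± 0.02 and Spag7 at -0.41 ± 0.02. Spag11a, annotated Spag11b and related to defensins, was not called (0.11 ± 0.07, adjusted p = 0.133).

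Markers of other cell types are given beside these groups, and as the values are ratios, no summed level per group can be given. Beside the lower tubulins and Spag5, 18 of 19 proliferation markers were lower, 0 were higher and 1 was not called by limma (0 higher at an unadjusted p under 0.05), with a median of -2.77. Kif20a lay at -4.28 ± 0.06, Ttk at -3.46 ± 0.05, Cdk1 at -3.42 ± 0.07 and Tpx2 at -3.34 ± 0.05. All 14 fibroblast markers were lower, with a median of -5.80, led by Thbs2 (-7.92 ± 0.15), Prrx1 (-7.44 ± 0.03), Col1a1 (-7.25 ± 0.09) and Col1a2 (-7.18 ± 0.18). Beside the neuron-enriched Dync1i1 and Tubb3, 11 of 18 neuronal markers were lower (61.1%, beside 49.7% of all named genes), 4 higher and 3 not called, with a median of -0.31 near the -0.22 of all genes. Stmn2 lay at -5.11 ± 0.19, Uchl1 at -4.95 ± 0.06, Nefh at -4.76 ± 1.14 and Gap43 at -1.73 ± 0.19, whereas Prph lay at 2.69 ± 0.05 and Elavl3 at 1.33 ± 0.18. The part of dividing cells, fibroblasts and neuronal transcripts in the tubulin and dynein ratios was not tested.

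Beside the motile cilium genes, all 9 secretory airway markers and all 13 alveolar epithelial markers were higher, with medians of 4.91 and 5.58. Cyp2f4 lay at 6.87 ± 0.08, Agr2 at 6.66 ± 0.83, Krt19 at 5.58 ± 0.11 and Bpifa1 at 5.09 and 4.90 in the arrays, among the former, and Lamp3 at 7.11 ± 0.05 and Akap5 at 6.33 ± 0.12 among the latter. The former list holds Scgb1a1 and the latter Sftpc, Sftpb, Sftpa1, Sftpd and Ager, the genes from which the sign was read. That these genes were higher was therefore fixed by that reading and is no separate result. Of 19 testis and sperm markers, 4 were higher, 12 lower (63.2%, beside 49.7% of all named genes) and 3 not called, with a median of -0.37. Prm2 lay at -3.29 ± 0.25, Dazl at -1.20 ± 0.18, Odf2 at -1.08 ± 0.01 and Prm1 at -0.83 ± 0.09, against Ldhc at 1.82 ± 0.41 and Ddx4 at 0.72 ± 0.01. Of 8 ependymal and choroid plexus markers, 2 were higher (Kcnj13 at 5.86 ± 0.20 and Aqp4 at 4.27 ± 0.57), 5 lower and 1 not called. The shares were 25% higher and 62.5% lower, beside 32.9% and 49.7% of all named genes. Their median of -0.27 lay near the -0.22 of all named genes. Vim lay at -3.06 ± 0.09, and Folr1, Otx2 and Gfap between -0.49 and -0.30.

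Platelets carry a ring of microtubules, and neuroendocrine cells move secretory granules along theirs. Of 12 platelet and megakaryocyte markers, 10 were higher (83.3%, beside 32.9% of all named genes) and 2 lower (16.7%, beside 49.7%). Their median was 1.39. Clec1b lay at 8.38 ± 0.44, Gp5 at 3.37 ± 0.03, Treml1 at 3.36 ± 0.02 and Rgs18 at 1.96 ± 0.40, against Gp1ba at -0.99 ± 0.15 and Itgb3 at -0.32 ± 0.03. Of 11 neuroendocrine markers, 4 were higher (36.4%, beside 32.9% of all named genes), 4 lower (36.4%, beside 49.7%) and 3 not called. Their median was -0.14. Ddc lay at 3.03 ± 0.40 and Calca at 2.41 ± 0.03, against Scg2 at -4.08 ± 0.12, Nkx2-2 at -0.74 ± 0.10, Scg3 at -0.34 ± 0.16 and Insm1 at -0.29 ± 0.09. Their part in the ratios of the cilium, transport and tubulin genes was not tested.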

How the data were processed

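Total RNA came from pelleted cells, per the labels' protocols. Agilent Feature Extraction is named in the submitters' processing notes. How it corrected background, balanced the dyes or centred the arrays, and its version, are not given in the sources read here. The authors deposited 1 value per probe and array, taken here as a log2 ratio. The log base is not stated: the values run from -11.74 to 9.09, and folds rest on base 2. Array medians are -0.16 and -0.21, so neither array is centred on its median probe.

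The platform annotation names 20417 of 40012 probes. Symbols were updated against a RefSeq gene table of GRCr8 (16978 probes by accession, 3044 by symbol, 387 by synonym, 8 kept), and values of several probes were averaged in 3768 of 15610 genes. All named genes entered 1 fit (limma 3.58.1, R 4.3.3). It used lmFit with only an intercept and then eBayes, and p-values were adjusted after Benjamini and Hochberg over 15610 genes at a threshold of 0.05, with 1 residual and 1.28 prior degrees of freedom. Mix1 was on no array of its own, so the test is of the ratio against 0. The fit was also run on simulated data in which few genes differed from 0. That setting is unlike these data, where 82.7% of named genes were called, so it does not test these calls.

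The genes, lists, motifs and tests were chosen with earlier results of these data known. Every gene of the name rule may be named. Of each other list, up to 4 genes past the threshold in the direction of its median and up to 2 against it were named, besides the 6 genes from which the likely sign was read. Genes of the rule were left out of the other lists. The comparisons of protein sequence planned for related members were not run here. Results were recomputed with array medians subtracted, with arrays scaled to each other, and with the median probe, which is the lower middle one for an even number. Further alternatives were single probes, members by updated symbol, robust eBayes, limma's treat against 2-fold, an adjusted p under 0.01, 4-fold in place of 2-fold, leaving out 34 genes with probes at least 2-fold from 0 in opposite directions, and leaving out each array.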

Additional observations from a re-analysis of the deposited data

How the results depend on the processing

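Every log2 ratio rose by 0.19 with array medians subtracted, which moved the median of all named genes from -0.22 to -0.04. The medians then became 0.37 for all 87 genes, 2.52 for motile cilium, 0.28 for transport and -0.61 for tubulin genes, 4 transport genes were at least 2-fold higher and 1 lower, and 4 tubulin genes passed as higher. Of the 87 genes, 9 then passed that had not and 3 no longer passed. Under treat against 2-fold, limma called 22 genes higher and 11 lower, of which transport had 2 and 1, no motile cilium gene was lower and no tubulin gene was higher (0 of each also at an unadjusted p under 0.05). With the median probe, 7 motile cilium genes were lower and 1 was at least 2-fold lower, the medians were 0.029 for all, 0.0011 for transport and -1.06 for tubulin genes, and the class medians of heavy chains (-0.21) and light chains (-0.24) and the means of Dnah1 (-0.42), Dnah2 (-0.35), Dnah3 (-0.36), Hydin (-0.43), Dync1i2 (-0.28) and Dynlt3 (-0.70) reversed. Taking the lower middle probe lowers genes with an even number of probes by construction.

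Single probes gave 50 lower in limma. At 2-fold or more, 42 were higher and 22 lower. By group they gave 38 at least 2-fold higher, 13 lower and 1 at least 2-fold lower (motile cilium, median 2.09), 4 at least 2-fold higher (transport, median 0.14) and 2 higher with 18 lower (tubulin, median -1.04). They turned the class medians of Bardet-Biedl genes (0.31) and light chains (-0.24), and array medians subtracted turned that of Bardet-Biedl genes (0.10). More probes than genes are counted by construction. Members by updated symbol gave 66 higher and 42 at least 2-fold higher, 47 and 38 for motile cilium genes with 6 lower, 4 transport genes at least 2-fold higher, and medians of 0.33 (all) and 2.18 (motile cilium). At an adjusted p under 0.01, 8 transport genes were higher. At 4-fold in both arrays, 5 genes were lower in all, 3 of them tubulins and 1 a transport gene, and 1 transport gene was higher.

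With 1 array left out, limma could not be fitted, since no residual degree of freedom remains. Over the array left, transport genes at least 2-fold higher numbered 2 to 4 (4 without replicate 1), and medians ran from 0.16 to 0.20 for all, 2.27 to 2.39 for motile cilium, 0.07 to 0.12 for transport and -0.84 to -0.76 for tubulin genes. All 87 genes kept their direction and side of the threshold under scaling between arrays and robust eBayes. Leaving out the 34 genes that had 1 probe 2-fold or more higher and another 2-fold or more lower removed none of the 87 and so tests nothing about them. No paired analysis was possible because there is 1 group, whose control is the same RNA on both arrays. Signal over background was not used here, so how far dim probes limit single ratios was not tested.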
